A study of Mus musculus with 6 samples.

Results

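The ligands, receptors and SMAD proteins of the TGF-beta pathway were followed in A20 cells, a mouse B cell lymphoma line from the BALB/c strain, before and after the cells were equipped with TETact-v3. The set was defined by gene symbol and held 10 of the 27179 gene identifiers counted: the ligands Tgfb1, Tgfb2 and Tgfb3, the receptors Tgfbr1, Tgfbr2 and Tgfbr3, and the signal carriers and inhibitor Smad2, Smad3, Smad4 and Smad7. The set was picked because Tgfb3 was much higher in TETact-v3 cells than in wild-type cells. All 10 genes were found in the count files, and 8 of them had enough reads to be tested, as had 12430 genes in all.

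RNA was sequenced from 3 groups of 2 libraries each. Wild-type A20 cells carried no construct. The other groups carried TETact-v3 with either a control sgRNA or an sgRNA against Cd4, the T cell co-receptor gene. In TETact-v3, a catalytically dead Cas9 bearing a SunTag peptide array recruits the catalytic domain of TET1, an enzyme that starts the removal of DNA methylation, and the MS2 aptamers of the sgRNA recruit the activator p65-hsf1. Both TETact-v3 groups were made by lentiviral transduction and sorting, so TETact-v3 itself, transduction, sorting and further growth cannot be told apart in a comparison with wild type. Libraries held from 23194920 to 121623410 assigned reads, and the control sgRNA libraries were the deepest. The targeted gene followed its label: Cd4 was at 945 and 913 CPM (counts scaled to library size) in the Cd4 sgRNA libraries and at 0.794 to 1.53 CPM in the other 4. Mitochondrial genes took 2.65% and 2.69% of the reads in wild type, 6.63% and 11.54% in control sgRNA, and 5.96% and 6.9% in Cd4 sgRNA libraries. The control sgRNA replicates differed more from each other, relative to counting error, than those of the other groups. Chi-square over its degrees of freedom was 243 for this pair, 7.98 for wild type and 6.89 for Cd4 sgRNA cells. This measure rises with depth for a given spread between replicates, so the size of the contrast also reflects the deeper control sgRNA libraries.

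TGF-beta ligands are secreted as latent complexes and, once released, bind the type II receptor TGFBR2, which then phosphorylates the type I receptor TGFBR1. TGFBR1 phosphorylates SMAD2 and SMAD3, which join SMAD4 and enter the nucleus to regulate transcription, while SMAD7, itself a product of the response, blocks the receptor. In B cells the pathway is known for restraining proliferation, favouring apoptosis and directing class switching to IgA.

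Among the ligands, Tgfb3 went from almost no reads in wild type to a middling level in both TETact-v3 groups, Tgfb1 stayed at one high level, and Tgfb2 was hardly detected. Tgfb3, identifier 21809, lies on chromosome 12 at 86056743 to 86079041 (mm10). Its reads numbered 2 and 3 in wild type, 2217 and 2403 in control sgRNA, and 691 and 898 in Cd4 sgRNA libraries. Scaled to library size, Tgfb3 was at 0.043 and 0.14 CPM in wild type, 19.95 and 29.7 CPM in control sgRNA, and 21.1 and 20.3 CPM in Cd4 sgRNA cells. Every TETact-v3 library stood above both wild-type libraries, and the TETact-v3 groups overlapped each other. The pooled ratio to wild type was 327 (95% exact interval from 139.9 to 1006) in control sgRNA cells and 280 (from 119.8 to 864) in Cd4 sgRNA cells. These intervals cover counting error only and are wide because wild type had 5 reads in all, at or under a detection floor of 3 reads in each library. As this difference chose the set, it is a description and carries no test. Against wild type, the fitted log2 fold change was 8.35 ± 0.45 (SE, n = 2 libraries a group) in control sgRNA and 8.09 ± 0.46 in Cd4 sgRNA cells. Without wild-type replicate 1 they were 7.47 and 7.21, and without replicate 2 they were 9.13 and 8.87.

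**Figure D1:**
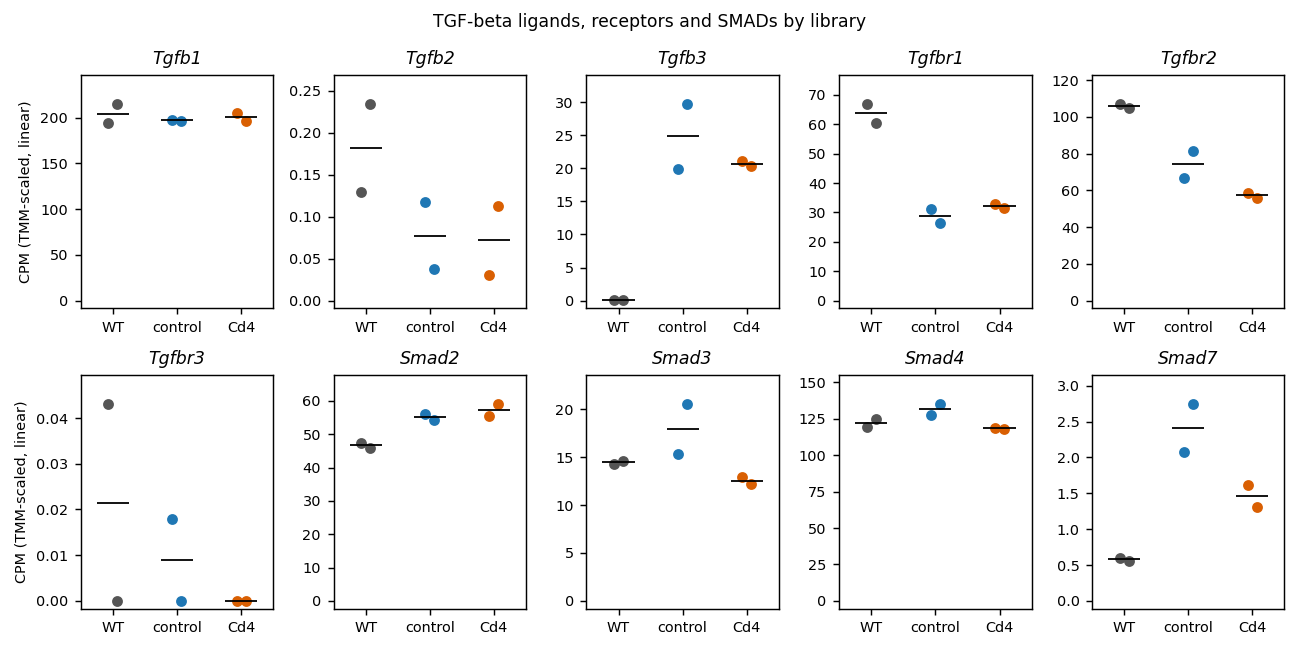
Level of each member in the 6 libraries, in CPM on a linear axis of its own that includes 0, for wild type (WT), control sgRNA (control) and Cd4 sgRNA (Cd4) cells. Points are libraries and bars are the means of 2. Tgfb3 lies at 0.043 and 0.14 CPM in wild type and at 19.95 CPM or more in every TETact-v3 library, whereas Tgfb1 lies at 194 to 215 CPM in all libraries.

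Tgfb1, the ligand most used by lymphocytes, was at 194 and 215 CPM in wild type, 198 and 196 CPM in control sgRNA, and 205 and 196 CPM in Cd4 sgRNA cells, and the groups overlapped. Its log2 fold change against wild type was -0.05 ± 0.09 (SE) in control sgRNA cells (edgeR quasi-likelihood adjusted p = 0.687) and -0.03 ± 0.09 in Cd4 sgRNA cells (adjusted p = 0.849), where scaling by library size alone turned it to 0.01. Tgfb2, which is better known from epithelial and developing tissues, had 6 and 5 reads in wild type, 13 and 3 in control sgRNA, and 1 and 5 in Cd4 sgRNA libraries, too few to test. Tgfb3 therefore made up 0.0137% and 0.0402% of the summed ligand RPKM (CPM per kilobase of counted length) in wild type, 5.85% and 8.59% in control sgRNA, and 5.97% and 6.02% in Cd4 sgRNA cells. Tgfb1 supplied at least 91.4% of the ligand RPKM in every library.

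Both signalling receptors were lower in TETact-v3 cells. Tgfbr1, the type I receptor kinase, was at 66.9 and 60.5 CPM in wild type, 31.2 and 26.5 CPM in control sgRNA, and 32.9 and 31.4 CPM in Cd4 sgRNA cells. All 4 TETact-v3 libraries lay below both wild-type libraries, with a log2 fold change of -1.15 ± 0.12 (SE) in control sgRNA (edgeR adjusted p = 0.00248) and -0.99 ± 0.12 in Cd4 sgRNA cells (adjusted p = 0.00568). Tgfbr2, the type II receptor kinase that binds the ligand, was at 107 and 105 CPM in wild type, 66.6 and 81.7 CPM in control sgRNA, and 58.8 and 56.0 CPM in Cd4 sgRNA cells. Again the groups did not overlap, and the log2 fold change was -0.52 ± 0.12 in control sgRNA (edgeR adjusted p = 0.0223) and -0.89 ± 0.12 in Cd4 sgRNA cells (adjusted p = 0.00753). Both comparisons share the wild-type libraries and are not independent of each other. Tgfbr3, the co-receptor betaglycan, had 2 reads in wild-type replicate 1, 2 in control sgRNA replicate 1 and 0 in the other 4 libraries, at or under the floor throughout.

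In Cd4 sgRNA against wild type, both receptors stayed called under all 9 alternative settings that left out no single replicate. With 2 libraries a group, the receptor calls depended on single libraries. In control sgRNA against wild type, the Tgfbr1 call was lost without wild-type replicate 1 (edgeR adjusted p = 0.0587), and the Tgfbr2 call without wild-type replicate 1 (0.178) or 2 (0.142), without either Cd4 sgRNA replicate (0.0663 each), which only inform the spread, or with these 2 groups fitted alone (0.0677). In Cd4 sgRNA against wild type, leaving out either wild-type or either Cd4 sgRNA replicate gave edgeR adjusted p of 0.0557 to 0.0925 for Tgfbr1 and 0.077 to 0.104 for Tgfbr2, with fold changes of the same sign.

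Because Tgfbr1 and Tgfbr2 were called lower in both comparisons with wild type, the windows of 250 bases before their starts are printed. They are from RefSeq (GRCm38.p6, the build also called mm10), 5′ to 3′ on the gene's strand, with each CG dinucleotide in capitals. The first is chr4:47352972-47353221 on the plus strand and the second chr9:116175364-116175613 on the minus strand.
Tgfbr1: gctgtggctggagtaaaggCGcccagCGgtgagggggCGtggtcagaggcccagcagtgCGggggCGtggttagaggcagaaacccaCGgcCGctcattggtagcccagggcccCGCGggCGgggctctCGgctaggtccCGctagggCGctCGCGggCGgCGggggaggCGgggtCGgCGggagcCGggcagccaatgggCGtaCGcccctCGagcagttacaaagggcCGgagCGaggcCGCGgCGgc
Tgfbr2: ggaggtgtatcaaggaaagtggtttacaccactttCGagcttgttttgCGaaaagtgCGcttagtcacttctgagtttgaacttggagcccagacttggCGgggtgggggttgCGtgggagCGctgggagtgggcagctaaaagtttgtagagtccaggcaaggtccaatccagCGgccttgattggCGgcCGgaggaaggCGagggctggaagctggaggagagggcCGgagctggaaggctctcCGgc
The Tgfbr1 window held 29 CG and the Tgfbr2 window 12, against a median of 6 over 32851 promoter windows of this length, of which 6.78% held at least 29 and 33.5% at least 12. A later Tgfbr1 start held 3. Of the other members matched to a window, Smad3 held 22 and Tgfb1 21, and Tgfb2 held 8. Smad3 and Tgfb1 were not called in either comparison with wild type, and Tgfb2 had too few reads to test. Tgfb3 was not matched to a window, so its CG count is not given. Methylation itself was not measured in these files, and whether CG content has a part in the changes of level was not tested.

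Among the SMADs, the inhibitor moved most. Smad7 had few reads, at 0.603 and 0.56 CPM in wild type, 2.07 and 2.74 CPM in control sgRNA, and 1.62 and 1.31 CPM in Cd4 sgRNA cells. The 3 groups did not overlap, and control sgRNA was highest. Smad7 rose against wild type in control sgRNA cells, with a log2 fold change of 2.01 ± 0.32 (SE; edgeR adjusted p = 0.00811). In Cd4 sgRNA cells the log2 fold change was 1.29 ± 0.37, which missed the threshold (edgeR adjusted p = 0.0556) and passed it with DESeq2 (0.0153), without the annotation filter (0.0426) or with these 2 groups fitted alone (0.00084). The call in control sgRNA cells was lost without wild-type replicate 1 (edgeR adjusted p = 0.12) or 2 (0.0718). An lncRNA gene overlaps the Smad7 span, as lncRNA genes overlap Tgfbr1, Tgfbr2 and Smad3. Whether counting used strand is not given in the sources used here, so reads of an antisense transcript could not be set apart.

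Smad2, which carries the receptor signal, was at 47.5 and 45.9 CPM in wild type, 56.1 and 54.2 CPM in control sgRNA, and 55.5 and 59.0 CPM in Cd4 sgRNA cells. Both TETact-v3 groups lay above wild type without overlap, but the log2 fold changes of 0.24 ± 0.09 (SE) and 0.29 ± 0.09 missed the threshold (edgeR adjusted p = 0.0849 and 0.0601). In Cd4 sgRNA cells Smad2 passed it with DESeq2 (adjusted p = 0.0443), library sizes alone (edgeR, 0.04) or these 2 groups fitted alone (edgeR, 0.000372). Smad3, the partner of Smad2, was at 14.3 and 14.6 CPM in wild type, 15.3 and 20.5 CPM in control sgRNA, and 12.9 and 12.2 CPM in Cd4 sgRNA cells. These lay on opposite sides of wild type, with neither difference called (edgeR adjusted p = 0.207 and 0.425). With Cd4 sgRNA and wild type fitted alone, Smad3 passed the threshold (edgeR adjusted p = 0.0495), in a fit that called 61.8% of all tested genes. Smad4, the common partner, was at 118 to 135 CPM in all libraries, with log2 fold changes against wild type of 0.10 ± 0.08 and -0.05 ± 0.08 (edgeR adjusted p = 0.376 and 0.707). In control sgRNA against wild type, 3 of the 7 tested members other than Tgfb3 passed an adjusted p of 0.05, Smad7 upward and Tgfbr1 and Tgfbr2 downward, and 28.0% of all tested genes did. In Cd4 sgRNA against wild type it was 2 of 7, both receptors downward, and 20.5% of all tested genes. As Tgfb3 in these contrasts chose the set, it is not counted and nothing is read from either count. The counts followed the share of all genes called. Without control sgRNA replicate 1 or 2 they were 6 and 4 in control sgRNA cells (64.2% and 59.9% of all genes) and 4 and 4 in Cd4 sgRNA cells (59.3% and 59.7%). Without wild-type replicate 1 or 2 they were 0 and 1 in control sgRNA cells (0.918% and 3.11%) and 0 and 0 in Cd4 sgRNA cells (0.635% and 1.45%), and without either Cd4 sgRNA replicate 2 in control sgRNA cells (12.1% and 12.0%) and 0 in Cd4 sgRNA cells (1.51% and 1.07%).

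Compared per length, the members kept nearly the same order in every group except for Tgfb3. Tgfb1 was highest at 97.7 ± 7.38 RPKM (SD, n = 2) in wild type, followed by Smad4 at 36.7 ± 1.21 and Tgfbr2 at 22.2 ± 0.246, and these led in the same order in both TETact-v3 groups. Tgfb3 ranked below Tgfb2 in wild type, at 0.0271 ± 0.0203 against 0.0384 ± 0.0156 RPKM, which the libraries did not separate. It stood next to Smad2 in TETact-v3 cells, at 7.33 ± 2.04 against 6.03 ± 0.153 RPKM in control sgRNA and 6.11 ± 0.167 against 6.26 ± 0.271 RPKM in Cd4 sgRNA cells, and the libraries of this pair overlapped in both groups. Tgfbr1, which had ranked above Smad2 in wild type at 11.2 ± 0.805 against 5.11 ± 0.126 RPKM, ranked below it in both TETact-v3 groups. Among all tested genes, the mean RPKM of Tgfb3 moved from percentile 1.45 in wild type to 43.4 in control sgRNA and 40.4 in Cd4 sgRNA cells.

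**Figure D2:**
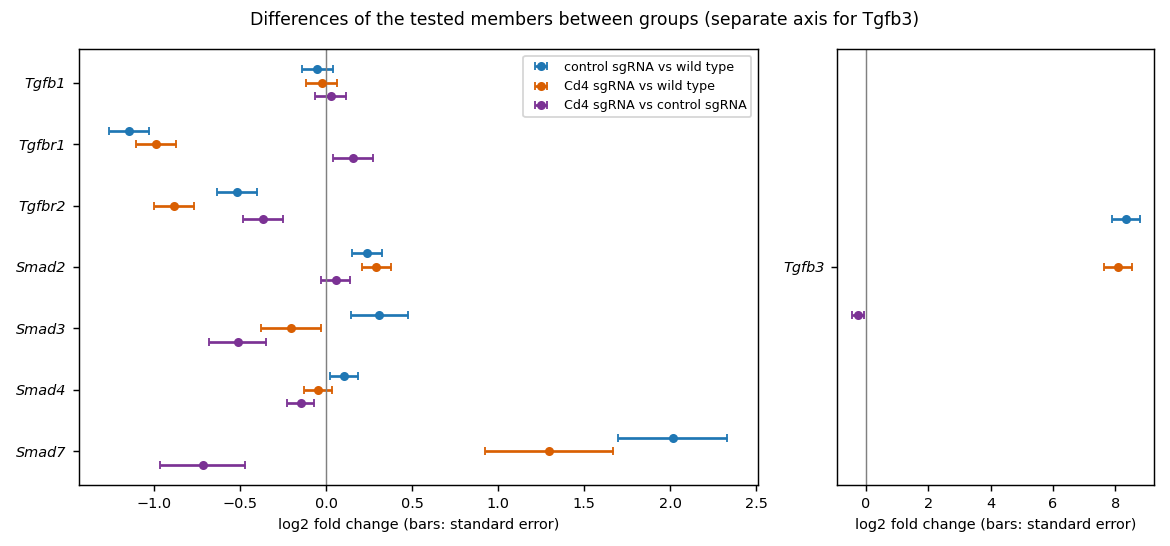
Fitted log2 fold change of each tested member in the 3 comparisons, with bars of 1 standard error, and Tgfb3 on an axis of its own. Tgfbr1 and Tgfbr2 lie below 0 in both comparisons with wild type, Smad7 above 0, and Tgfb3 near 8 against wild type and at -0.26 between the TETact-v3 groups.

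The comparison of Cd4 sgRNA with control sgRNA cells, both with TETact-v3, was not used to choose the set. None of the 8 tested members was called there by edgeR, against 0.0724% of all tested genes (0.0241% higher and 0.0483% lower, 9 genes), while 3 members and 3093 of all tested genes had an unadjusted p under 0.05, and DESeq2 and voomLmFit also called 0 members. For Tgfb3 the log2 difference was -0.26 ± 0.20 (SE; edgeR adjusted p = 0.408). Smad7 at -0.72 ± 0.25, Smad3 at -0.52 ± 0.17 and Tgfbr2 at -0.37 ± 0.12 were lower in both Cd4 sgRNA libraries than in both control sgRNA libraries, with edgeR adjusted p of 0.169, 0.156 and 0.155. Smad4 at -0.15 ± 0.08 was also lower without overlap, and Tgfbr1 at 0.155 ± 0.116 was higher without overlap (edgeR adjusted p = 0.282 and 0.412). How many of all tested genes separate in this way was not counted. The absence of called members depended on single control sgRNA replicates. Without control sgRNA replicate 1, 6 members were called, Tgfb3 among them at -0.52 (edgeR adjusted p = 1.48e-05), and 2 without control sgRNA replicate 2, where Tgfb3 was at 0.05 (0.742). In the same fits 61.2% and 24.9% of all tested genes were called.

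The rest of the pathway was read from lists of 124 further genes, of which 67 were tested. In control sgRNA against wild type, 15 rose, 7 fell and 45 were not called, with a median log2 fold change of 0.12 against 0.00 over all tested genes. In Cd4 sgRNA against wild type, 13 rose, 10 fell and 44 were not called, with a median of -0.05 against 0.00. The called shares of 32.8% and 34.3% stand beside 28.0% and 20.5% of all tested genes. Between the TETact-v3 groups edgeR called 0 of 67 and DESeq2 16, beside 11.3% of all tested genes. The counts against wild type rested on few libraries. Without wild-type replicate 1 or 2 they were 2 and 3 in control sgRNA cells and 0 and 0 in Cd4 sgRNA cells, without Cd4 sgRNA replicate 1 or 2 they were 11 and 11, and 1 and 0, and without control sgRNA replicate 1 or 2 they were 48 and 47, and 49 and 48. The shares of all genes called in these fits, given above with the members' counts, moved likewise. Of the genes named next, Inhbb, Lefty1, Wwp1, Sp1, Atf3, Fos, Id3 and Bcl2l11 lost their call in control sgRNA cells with only these groups fitted (edgeR adjusted p of 0.0527 to 0.0835), and with voomLmFit Atf3 lost it there (0.104) and Bmpr2, Ltbp3, Fos and Itgae in Cd4 sgRNA cells (0.0502 to 0.0699).

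Of 7 tested other ligands, Lefty1, an antagonist of Nodal, fell from 1.72 and 1.77 CPM in wild type to 0.135 and 0.655 CPM in control sgRNA and 0.122 and 0.158 CPM in Cd4 sgRNA cells (edgeR adjusted p = 0.0349 and 0.0352). Inhbb, which encodes the beta B subunit of activins and inhibins, had no read in wild type and was at 0.309 to 0.72 CPM in the 4 TETact-v3 libraries. With wild type set to 3 reads over its 2 libraries together, Inhbb was 12.4-fold higher in control sgRNA and 12.0-fold higher in Cd4 sgRNA cells. These ratios depend on the reads set for wild type and leave out the spread between replicates. Inhbb passed the test in control sgRNA cells only (edgeR adjusted p = 0.0463 and 0.0681), without a called difference between the TETact-v3 groups (0.979). Of 6 tested other receptors, the BMP receptor Bmpr2 and the BMP co-receptor Rgmb rose in both TETact-v3 groups. Rgmb was at 3.38 and 3.46 CPM in wild type and at 5.96 to 6.95 CPM in TETact-v3 libraries. The log2 fold changes of Bmpr2 were smaller, 0.58 ± 0.11 (SE) and 0.45 ± 0.11. The 1 tested SMAD outside the set was not called in any comparison.

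Of 10 tested genes of latency and activation, 2 fell and 0 rose in each comparison with wild type. Over all tested genes, 13.5% fell and 14.5% rose in control sgRNA, and 10.7% fell and 9.84% rose in Cd4 sgRNA cells. Lrrc32, which encodes GARP, the protein that tethers latent TGF-beta to the cell surface, fell in both, from 7.1 and 8.64 CPM to 2.04 and 3.29 CPM in control sgRNA and 2.75 and 3.21 CPM in Cd4 sgRNA cells (edgeR adjusted p = 0.00986 and 0.0243). Nrros, a relative of GARP that tethers latent TGF-beta in myeloid cells, fell in control sgRNA cells only by the threshold, with a log2 fold change of -0.52 ± 0.09 against 0.27 ± 0.09 in Cd4 sgRNA cells, and the direct difference was not called (edgeR adjusted p = 0.0575). Ltbp3, a latent TGF-beta binding protein, fell in Cd4 sgRNA cells to 1.22 and 0.791 CPM from 9.47 and 10.2 CPM, while the control sgRNA replicates stood apart at 3.77 and 11.6 CPM.

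Among 19 tested intracellular regulators, 4 rose and 1 fell in control sgRNA and 6 rose and 1 fell in Cd4 sgRNA cells. The shares over all tested genes were 14.5% and 13.5% in control sgRNA and 9.84% and 10.7% in Cd4 sgRNA cells. The ubiquitin ligases Nedd4l and Wwp1, which act on SMADs and receptors, rose in both. Nedd4l was at 3.57 and 3.27 CPM in wild type, 16.1 and 22.2 CPM in control sgRNA, and 13.4 and 13.0 CPM in Cd4 sgRNA cells. Its log2 fold change was 2.47 ± 0.21 (SE; edgeR adjusted p = 0.00176) and 1.93 ± 0.22 (0.00501). Zfyve16, an endosomal protein that binds SMADs, rose by a log2 fold change of 0.77 ± 0.10 and 0.40 ± 0.10. Fkbp1a, whose product FKBP12 holds the type I receptor inactive, was the gene that fell in both, from 228 and 221 CPM in wild type to 159 and 156 CPM in control sgRNA and 141 and 126 CPM in Cd4 sgRNA cells.

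Of 8 tested nuclear partners of SMADs, Runx3 rose in both comparisons, from 68.1 and 68.6 CPM to 118 and 149.7 CPM in control sgRNA and 107 and 109 CPM in Cd4 sgRNA cells, and Fos fell in both at low levels. Sp1 and Atf3 passed the threshold in control sgRNA cells alone, and Atf3 was at 2.34 and 8.59 CPM there, a wide spread. Neither differed by the test between the TETact-v3 groups (edgeR adjusted p = 0.135 and 0.15).

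Genes known to respond to TGF-beta moved in both directions. Of 19 tested, 5 rose and 2 fell in control sgRNA and 4 rose and 5 fell in Cd4 sgRNA cells, with medians of 0.12 and -0.38 on the log2 scale. Over all tested genes, 14.5% rose and 13.5% fell in control sgRNA and 9.84% and 10.7% in Cd4 sgRNA cells, with medians of 0.00. Snai2, a repressor of epithelial genes, rose in both from 0.237 and 0.0467 CPM to between 0.99 and 1.94 CPM. Bhlhe40, a transcription factor that also follows hypoxia and stress, rose from 14.9 and 14.6 CPM to 76.2 and 114 CPM in control sgRNA and 33.0 and 31.2 CPM in Cd4 sgRNA cells. Itgae, the integrin chain CD103, rose in both at low levels (edgeR adjusted p = 0.0469 and 0.0383). Only its call in Cd4 sgRNA cells was examined under the alternative settings.

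The genes that fell included Id3 and Id2, inhibitors of basic helix-loop-helix factors, and Bcl2l11, which encodes the pro-apoptotic protein BIM. Id3 fell from 47.3 and 49.6 CPM in wild type to 7.79 and 20.05 CPM in control sgRNA and 9.67 and 9.92 CPM in Cd4 sgRNA cells. Bcl2l11 fell from 352 and 365 CPM to 145 and 241 CPM and to 114 and 106 CPM. Id2 fell by the test in Cd4 sgRNA cells, to 16.6 and 14.2 CPM from 74.0 and 67.9 CPM, and the control sgRNA replicates lay apart at 27.8 and 57.6 CPM.

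**Figure D3:**
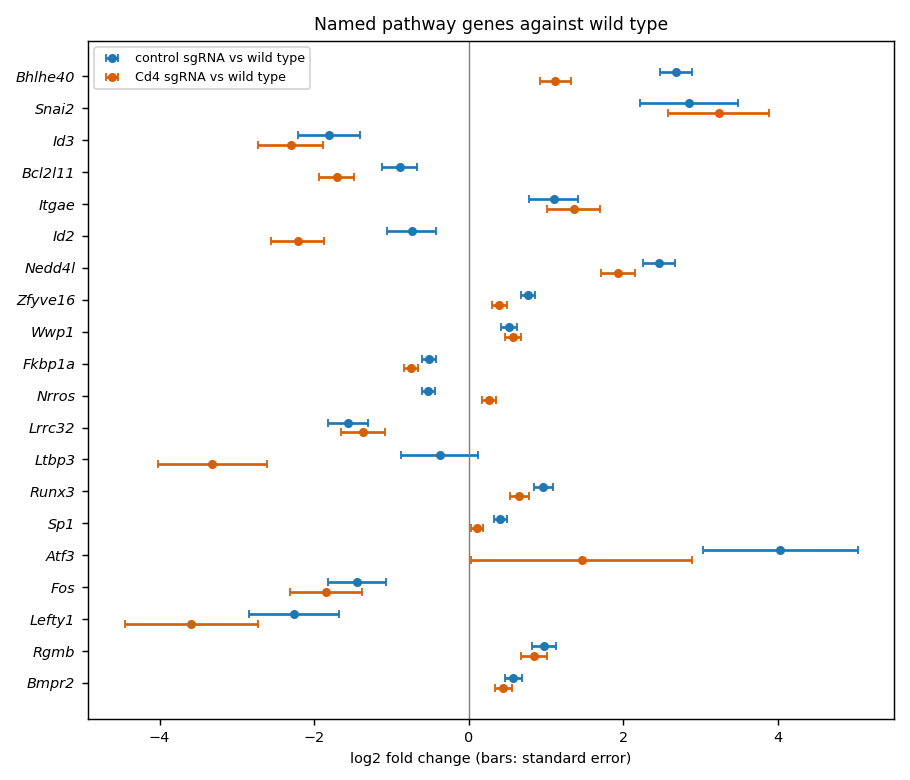
Fitted log2 fold change against wild type, with bars of 1 standard error, for the pathway genes named in the text other than Inhbb, whose wild-type reads are all 0. Blue is control sgRNA and orange Cd4 sgRNA cells. Nedd4l, Snai2 and Rgmb lie above 0 in both, and Lrrc32, Id3 and Lefty1 below 0 in both.

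The surroundings of Tgfb3 showed no such rise. Within 500 kb lay 9 genes with a RefSeq symbol, of which 6 were tested, and 0 rose and 3 fell in each comparison with wild type, beside 14.5% of all tested genes that rose and 13.5% that fell in control sgRNA and 9.84% and 10.7% in Cd4 sgRNA cells. Ttll5, a tubulin glutamylase gene that ends 2.98 kb from Tgfb3, was at 36.4 to 40.0 CPM in all 6 libraries, with log2 fold changes of 0.04 ± 0.08 (SE; edgeR adjusted p = 0.732) and -0.08 ± 0.09 (0.54). On the other side, Ift43, 3.52 kb away, had 0 to 5 reads and could not be tested, and Gpatch2l, the nearest tested gene at 163 kb, was at 25.5 to 29.9 CPM (edgeR adjusted p = 0.957 and 0.372).

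The genes that fell near Tgfb3 were Batf and Jdp2, which encode AP-1 family transcription factors, and Erg28, a sterol synthesis gene. Batf, 348 kb away, fell from 169.8 and 171 CPM in wild type to 79.9 and 84.3 CPM in control sgRNA and 97.1 and 94.7 CPM in Cd4 sgRNA cells (edgeR adjusted p = 0.00131 and 0.00305). Jdp2, 417 kb away, fell from 21.2 and 22.5 CPM to between 4.54 and 7.69 CPM (edgeR adjusted p = 0.007 and 0.0128). Erg28 fell by less, with log2 fold changes of -0.29 ± 0.08 and -0.43 ± 0.08 (0.0342 and 0.0163). Between the TETact-v3 groups 0 of the 6 were called by edgeR. Without either wild-type replicate the count of 3 against wild type became 1 in control sgRNA and 0 in Cd4 sgRNA cells, and without either Cd4 sgRNA replicate it became 2 and 0. The call of Erg28 in control sgRNA cells was also lost without the filter on low counts (edgeR adjusted p = 0.0535) or with these groups fitted alone (0.114).

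The 5 tested genes whose profile over the 6 libraries lay nearest to that of Tgfb3, by Euclidean distance of centred log2 CPM with a prior count of 2, were Ly6k, A4galt, Upk1b, Gpat2 and Tex101, at distances of 1.0 to 1.66 and with a Pearson correlation of 0.986 to 0.997. The 6 points of this correlation are libraries in which wild type stands apart from the rest. Ly6k and Tex101, known from male germ cells, had 0 and 0 and 1 and 1 reads in wild type and were at 7.46 to 8.18 and 5.03 to 5.42 CPM in the TETact-v3 libraries. Gpat2, a glycerolipid acyltransferase best known from testis, was at 1.12 and 1.26 CPM in wild type, 119 and 91.8 CPM in control sgRNA, and 125 and 129 CPM in Cd4 sgRNA cells. A4galt, a glycosyltransferase gene, had 1 and 0 reads in wild type and was at 8.6 to 12.0 CPM in TETact-v3 libraries, and Upk1b, a uroplakin gene, had 0 and 0 reads and was at 3.78 to 7.73 CPM. The choice of nearest genes depended on how reads near 0 were treated: with a prior count of 0.5, 1 of the 5 remained, Tex101.

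**Figure D4:**
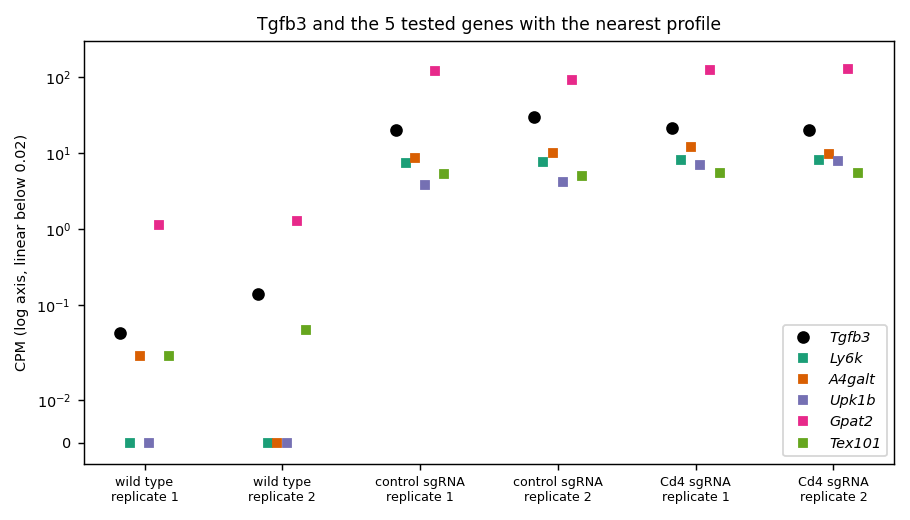
Level of Tgfb3 (black circles) and of the 5 tested genes with the nearest profile (squares) in each library, in CPM on a log axis that is linear below 0.02 CPM. In wild type Tgfb3, Ly6k, A4galt, Upk1b and Tex101 lie at 0 to 0.14 CPM and Gpat2 at 1.12 and 1.26 CPM, and in the TETact-v3 libraries all 6 genes lie at 3.78 CPM or more.

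The identity of the cells was checked with marker lists. All 8 B cell markers were present, with a summed level of 2167 to 2168 CPM in wild type, 1347 to 1585 CPM in control sgRNA, and 1321 to 1379 CPM in Cd4 sgRNA cells. In both comparisons with wild type 4 of them fell, Cd79a, Cd79b and Blnk included, and the other 4 were not called. Over all tested genes, 13.5% fell in control sgRNA and 10.7% in Cd4 sgRNA cells. The receptors Tgfbr1 and Tgfbr2 moved in the same direction as the B cell markers that fell, and the part of this in the receptor result was not tested. In bulk RNA, fewer cells with a transcript and less transcript per cell cannot be told apart. Fibroblast and stromal markers, from cells known to make Tgfb3, summed to 1.16 to 1.17 CPM in wild type, 5.43 to 10.3 CPM in control sgRNA, and 1.43 to 1.65 CPM in Cd4 sgRNA cells. Of these 7 genes, Col1a2 and Lum had 0 reads in all libraries. Pdgfrb, the 1 that could be tested, gave most of the sum and rose in control sgRNA cells (log2 fold change 2.75 ± 0.44, SE; edgeR adjusted p = 0.00874), and in Cd4 sgRNA cells its log2 fold change was 0.18 ± 0.60 (0.846). The part of these cells in the level of Tgfb3 was not tested. The 5 platelet markers summed to at most 0.452 CPM, with Pf4 and Ppbp at 0 reads in all libraries, and the 7 T cell markers to at most 0.519 CPM, with Cd3e at 0 reads. The 6 myeloid markers summed to 234 to 301 CPM, nearly all from Cd68, with Lyz2 at 0.0452 CPM or less and 0 markers called in any comparison.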

How the data were processed

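RNA-seq libraries of 3 groups of 2 A20 samples were used, and groups were taken from the sample titles. The deposited values are whole-number counts of reads per Entrez gene. Per the study's methods and the submitters' processing notes, the authors used Rsubread for alignment to mm10 and featureCounts with its inbuilt annotation for counting, and described the samples as independently repeated. Identifiers were matched to RefSeq symbols (25275 of 27179). Genes without a symbol, mitochondrial and ribosomal RNA genes were removed (25227 kept), which took out 5.01% to 13.94% of counts, and edgeR's filterByExpr left 12430 genes. Counts were scaled by TMM and fitted over all 6 libraries with edgeR 4.0.16 (glmQLFit, robust; glmQLFTest) in R 4.3.3, with Benjamini-Hochberg adjustment at 0.05. The same test was also run on simulated data, and the outcome is not reported here. The study's own fit, voomLmFit (limma 3.58.1), DESeq2 1.42.0 and other settings served as alternatives. The SE is the log2 fold change divided by the root of F. A floor of 3 reads equalled 0.027 to 0.14 CPM.

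The members and lists were chosen with earlier results of these data known. Genes named beyond the members were up to 3 a list and direction with the smallest p among those called, the 5 nearest profiles, and the called and nearest tested neighbours of Tgfb3. Some genes that this rule names are not reported here.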

Additional observations from a re-analysis of the deposited data

How the results depend on the processing

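Leaving aside Tgfb3 against wild type, which has no test, 189 of 198 values of the members' log2 fold changes under the alternatives that kept all libraries stayed on the same side of 0 and of the threshold. Tgfb1 in Cd4 sgRNA against wild type turned to 0.013 with library sizes alone, and Gpatch2l in control sgRNA against wild type turned to 0.034 there and to 0.007 with a stricter filter on low counts. With only the compared groups fitted, 1571 genes and 11 pathway genes were called in control sgRNA against wild type (3480 and 22 in the reported fit), 7451 genes, 5 members and 47 pathway genes in Cd4 sgRNA against wild type (2548, 2 and 23), and 1 gene between the TETact-v3 groups (9). DESeq2 called 4 members in Cd4 sgRNA against wild type and 1409 genes and 16 pathway genes between the TETact-v3 groups, where no filter on low counts gave 18 and 2. voomLmFit called 15 pathway genes in Cd4 sgRNA against wild type. The causes of these changes were not tested.

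Leaving out 1 library at a time moved the counts of calls most, with Tgfb3 against wild type not counted. In control sgRNA against wild type they were 117 to 8218 genes, 0 to 6 members, 2 to 48 pathway genes and 1 to 3 neighbours, in Cd4 sgRNA against wild type 81 to 7593, 0 to 4, 0 to 49 and 0 to 3, and between the TETact-v3 groups 1 to 7839, 0 to 6, 0 to 41 and 0 to 2. Log2 fold changes near 0 changed sign: Tgfb1 in control sgRNA against wild type from -0.104 to 0.048, Gpatch2l in control sgRNA against wild type from -0.078 to 0.087, Tgfb1 in Cd4 sgRNA against wild type from -0.076 to 0.076, Smad4 in Cd4 sgRNA against wild type from -0.054 to 0.011, Tgfb1 in Cd4 sgRNA against control sgRNA from -0.004 to 0.063, Tgfb3 in Cd4 sgRNA against control sgRNA from -0.518 to 0.049 and Jdp2 in Cd4 sgRNA against control sgRNA from -0.340 to 0.419. With 2 samples a group no outlier can be tested. The reported p-values rest on a spread fitted over all 6 libraries, including the group outside each comparison. Tgfb2 and Tgfbr3, at or near the floor, allow no comparison at this depth.

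Replicate numbers came from sample titles that state no pairing. Same-numbered samples correlated at -0.0322 to 0.0201 with wild type and -0.137 between the TETact-v3 groups. With the replicate block, 14 pathway genes were called in Cd4 sgRNA against wild type and no member call changed. Of the other named genes it ended the calls of Bmpr2, Zfyve16 and Fos there (edgeR adjusted p = 0.0614, 0.0652 and 0.0541) and those of Inhbb and Erg28 in control sgRNA against wild type (0.0573 and 0.065).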
